A study of Mus musculus with 8 samples.

Results

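Nfat5 and 4 genes known as its osmotic targets, Slc5a3, Slc6a6, Akr1b3 and Hspa4l, were followed in the hippocampus of adult male mice that had been exposed to bisphenol A (BPA) through their mothers. They are 5 of the 24527 rows of the deposited count table and were picked by gene symbol. Nfat5 entered because its count differed between the BPA and control groups in these libraries, and the targets entered for what they are known to do, with results of these data already known. The values of Nfat5 between the groups are therefore given as a description, and the question put to the data is whether a lower Nfat5 went with lower targets.

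Poly(A) RNA of 8 wild-type C57BL/6J males, aged 20 weeks, was sequenced from the hippocampus. The BPA group held 4 mice whose mothers ate a low phytoestrogen diet with 50 mg of BPA per kg of diet while pregnant and nursing, and the control group held 4 mice whose mothers ate that diet with no BPA. BPA, a building block of polycarbonate plastics, binds estrogen receptors weakly. All pups ate the control diet after weaning on day 21, so no mouse was on BPA when it was sampled. The mice of a group are described as independent biological replicates. No source used here ties them to litters, and p-values therefore cover only the variation among these mice.

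NFAT5, also called TonEBP, is a transcription factor of the Rel family that binds tonicity-responsive enhancers (TonE) and switches on genes that let cells gather small organic osmolytes when the outside fluid becomes more concentrated. Slc5a3 encodes the sodium-coupled myo-inositol transporter SMIT1, Slc6a6 the taurine transporter, and Akr1b3 the mouse aldose reductase, which makes sorbitol from glucose. Hspa4l encodes an osmotic stress protein of the Hsp110 chaperone family. In brain, myo-inositol and taurine are main osmolytes, and NFAT5 is also expressed in neurons under ordinary tonicity.

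BPA libraries held 43.12 to 54.01 M counts (M, mega) and control libraries 27.14 to 40.79 M, so every BPA library was deeper than every control library (p = 0.02857 in a two-sided exact permutation test, which is its lowest possible value). Depth and group thus moved together. Values with depth as a covariate are given for some genes, and others moved with it too. All 10 markers of hippocampal principal neurons were counted, with summed levels of 5490.3 to 5931.1 CPM (counts per M library counts, after scaling) in BPA mice and 5224 to 6020.7 CPM in control mice. The 10 choroid plexus markers summed to 358.28, 164.53, 830.17 and 228.99 CPM in BPA mice, against 281.25, 3123.1, 208.38 and 305.74 CPM in control mice. Control mouse 2 stood far above the rest: with it 10 of 10 markers were lower in BPA mice (median log2 fold change -1.31), and without it 9 of 10 were higher (median 0.64). The 8 ependymal markers summed to 14.153 to 25.2 CPM in BPA mice and 18.175 to 38.982 CPM in control mice, with 8 of 8 lower (median -0.52) and, without control mouse 2, 7 of 8 lower (median -0.19). No marker of either list passed the threshold with all 8 libraries. The part of depth and of choroid plexus RNA in the results was not tested beyond the covariate fits and the fits without those mice. In tissue RNA, fewer cells of a type and less RNA per cell cannot be told apart.

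Nfat5 lies on chromosome 8, at 107293470 to 107379517 on the plus strand of GRCm38 (mm10), and its annotated exons cover 18378 bases. Its level was 223.5, 237.0, 253.0 and 222.4 CPM in the 4 BPA mice, against 273.6, 266.2, 286.0 and 268.7 CPM in the 4 control mice. The groups did not overlap, and the highest BPA mouse stayed under the lowest control mouse. Nfat5 averaged 234.0 ± 14.3 CPM in BPA mice and 273.6 ± 8.8 CPM in control mice (SD, n = 4 each), which is a log2 fold change of -0.23 ± 0.051 (SE) and a fold of 0.855 (95% interval 0.792 to 0.924). These are the values that chose Nfat5. It ranked 10 of 15434 tested genes by unadjusted p. It did not pass the adjusted threshold of 0.05 in edgeR's quasi-likelihood test (adjusted p = 0.955) and passed it in DESeq2 (adjusted p = 0.0335). Of the 15434 genes, edgeR called 0 (percent called 0.0), with 698 at an unadjusted p under 0.05. At that unadjusted limit 2.3% of all genes were lower and 2.22% higher in BPA mice. DESeq2 called 7 of 20749 genes with a p-value (0.0337%), with 627 at an unadjusted p under 0.05. With depth as a covariate the log2 fold change of Nfat5 was -0.23 ± 0.084 (SE), a wider SE than the 0.051 above. Across leaving out each mouse in turn it ran between -0.27 and -0.20.

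None of the 3 targets with counts passed the test, and neither did any of the 15434 genes. Their log2 fold changes ran between -0.19 and -0.022, so Nfat5 at 0.855 of the control level stood beside targets at 0.876, 0.953 and 0.985 of theirs. In each of the 3 targets the BPA and control mice overlapped. Over all tested genes, 1.43% were lower in BPA mice with no overlap.

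**Figure D1:**
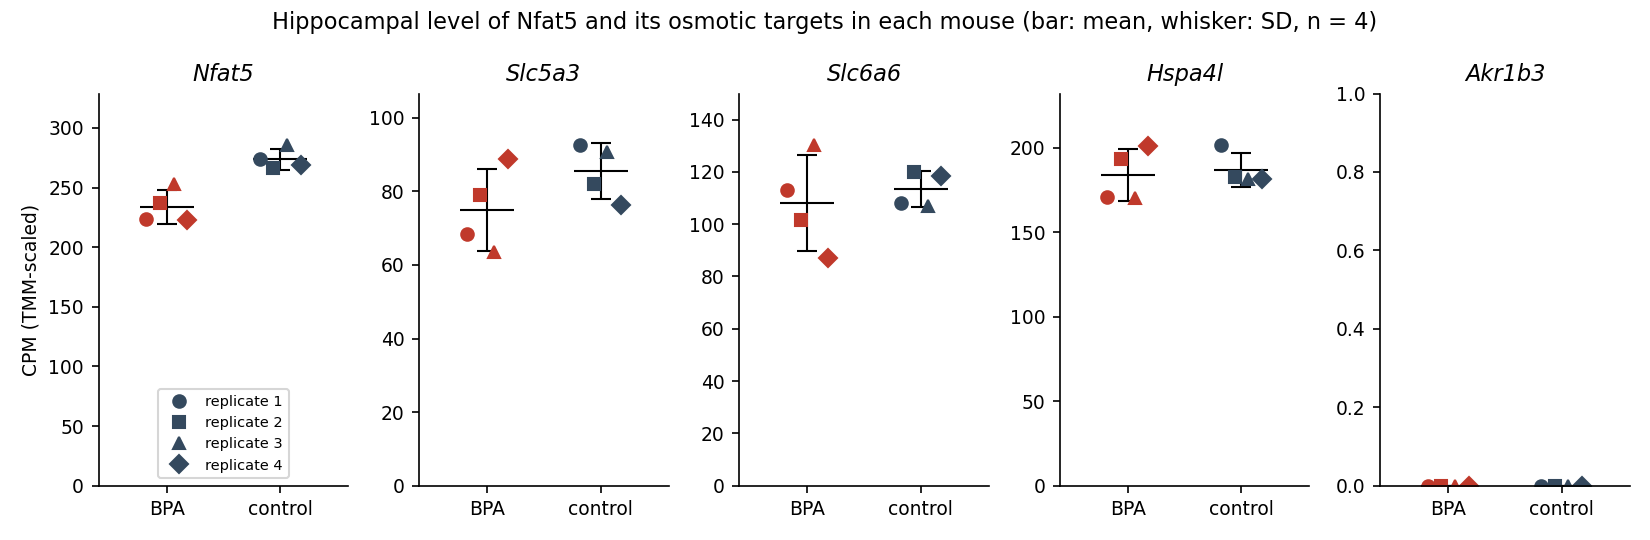
Level of each gene in each mouse, in CPM after TMM scaling, with BPA mice (red) left of control mice (dark). The bar is the mean and the whisker the SD of 4 mice. Nfat5 at 222.4 to 253.0 CPM in BPA mice lies below 266.2 to 286.0 CPM in control mice, the groups overlap for Slc5a3, Slc6a6 and Hspa4l, and Akr1b3 is listed at 0 in all 8.

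Slc5a3 takes up myo-inositol together with sodium and lies on chromosome 16, at 92058322 to 92087473 on the plus strand. It stood at 68.45, 78.91, 63.64 and 88.77 CPM in BPA mice, against 92.70, 82.09, 90.62 and 76.41 CPM in control mice. BPA mice 1 and 3 were below every control mouse, and BPA mouse 4 was above control mice 2 and 4. The means were 74.94 ± 11.2 CPM in BPA mice and 85.46 ± 7.58 CPM in control mice (SD, n = 4 each). The log2 fold change was -0.19 ± 0.094 and the fold 0.876, with a 95% interval of 0.760 to 1.010 (edgeR quasi-likelihood test, adjusted p = 0.955). Without BPA mouse 3 the log2 fold change was -0.12, and with depth as a covariate it was -0.35, neither past the threshold. Slc5a3 shares 159 exon bases with Mrps6, a mitochondrial ribosome gene on the same strand, whose level was 13.69 ± 0.991 CPM in BPA mice and 13.78 ± 0.928 CPM in control mice (SD, n = 4 each).

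Slc6a6 brings taurine into the cell and lies on chromosome 6, at 91684053 to 91759066 on the plus strand. Its level was 113.0, 101.6, 130.4 and 87.0 CPM in BPA mice, against 107.9, 120.1, 106.9 and 118.4 CPM in control mice. The 4 BPA mice enclosed the whole control range, with BPA mouse 3 the highest of the 8 and BPA mouse 4 the lowest. It averaged 108.0 ± 18.4 CPM in BPA mice and 113.3 ± 6.89 CPM in control mice (SD, n = 4 each), a log2 fold change of -0.069 ± 0.098 and a fold of 0.953 (95% interval 0.823 to 1.104; edgeR adjusted p = 0.962). The direction was not stable, at 0.021 on the log2 scale without BPA mouse 4, -0.17 without BPA mouse 3 and 0.025 with depth as a covariate. A predicted gene, Gm44981, overlaps it on the opposite strand.

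Hspa4l, the osmotic stress chaperone, lies on chromosome 3, at 40744495 to 40796103 on the plus strand. It was counted at 170.9, 193.1, 170.4 and 200.8 CPM in BPA mice, against 201.7, 182.3, 181.5 and 181.1 CPM in control mice. BPA mice 1 and 3 were the lowest of the 8, and control mouse 1 stood about level with BPA mouse 4. The means were 183.8 ± 15.5 CPM in BPA mice and 186.6 ± 10.1 CPM in control mice (SD, n = 4 each). The log2 fold change was -0.022 ± 0.062 and the fold 0.985, with a 95% interval of 0.896 to 1.082 (edgeR adjusted p = 0.977). Its sign turned without BPA mouse 1, BPA mouse 3 or control mouse 1, within -0.067 to 0.017, and with depth as a covariate it was -0.14.

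Akr1b3 could not be read from the table. It lies on chromosome 6, at 34302434 to 34317478 on the minus strand, and was listed at 0 in all 8 libraries. Ndufs5, Amd1 and Eif3j1, genes that most cells use and that were picked here after their values were seen, were also listed at 0 in all 8 libraries, as was Gm6644, a pseudogene of Akr1b3 in RefSeq. Of the 50-base stretches in the transcripts of Akr1b3, 13.58% also occur in transcripts of other genes, against 0.36% to 1.01% for the other 4 genes. No source used here says how reads with several positions were counted, and the 0 is no measure of aldose reductase RNA. Akr1b8, a related reductase, was counted at 0.403 ± 0.080 CPM in BPA mice and 0.350 ± 0.128 CPM in control mice (SD, n = 4 each; log2 fold change 0.24 ± 0.304, edgeR adjusted p = 0.957). Without control mouse 1 its log2 fold change was 0.014, and without control mouse 2 it was 0.42.

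Per kilobase of annotated exon, Hspa4l had the highest level of the 4 counted genes, at 15.59 ± 1.32 CPM per kb in BPA mice and 15.83 ± 0.855 CPM per kb in control mice (SD, n = 4 each). Nfat5 followed in control mice, at 12.73 ± 0.778 CPM per kb in BPA mice and 14.89 ± 0.479 CPM per kb in control mice. Slc6a6 was next in control mice, at 12.77 ± 2.17 CPM per kb in BPA mice and 13.4 ± 0.815 CPM per kb in control mice. Slc5a3 was lowest, at 6.867 ± 1.03 CPM per kb in BPA mice and 7.831 ± 0.695 CPM per kb in control mice. In BPA mice, Hspa4l and Slc6a6 and likewise Slc6a6 and Nfat5 differed by less than the sum of their SDs, as did Hspa4l and Nfat5 in control mice. Slc5a3 reached at most 8.495 CPM per kb in any mouse, below the lowest value of the other 3, which was 10.29 CPM per kb. The exon lengths pool all transcripts of a gene in GENCODE vM21, while the counts follow refGene. The order of the 4 genes therefore depends on that choice of length, and other lengths were not tried.

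**Figure D2:**
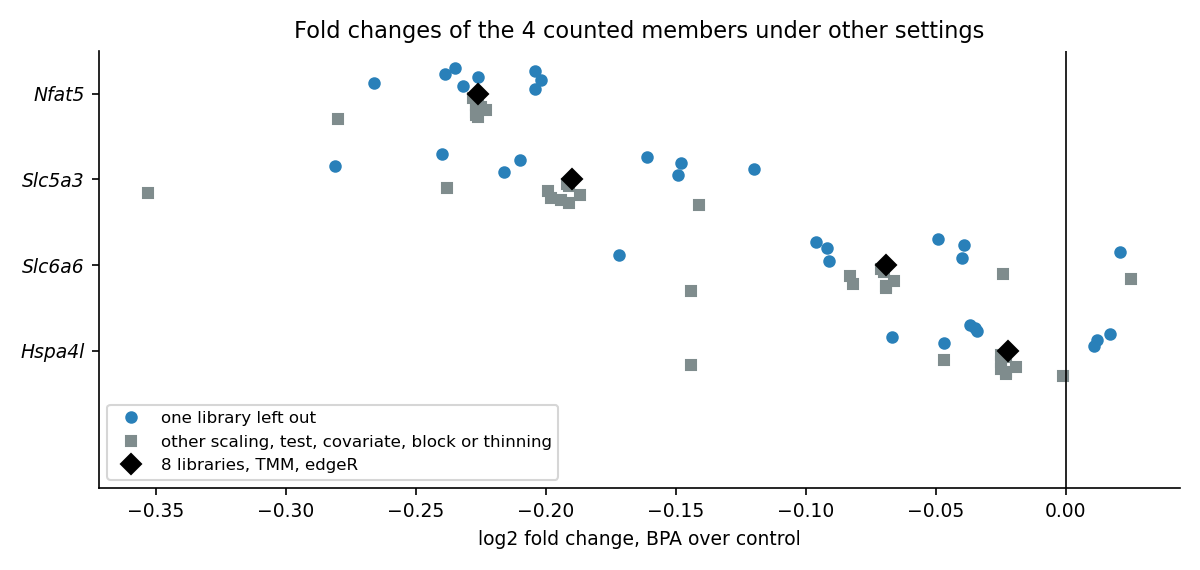
Log2 fold change, BPA over control, of the 4 counted genes on 8 libraries (diamond), with each mouse left out in turn (circles) and under other scalings, tests, covariates, a block or thinning (squares). Nfat5 stays between -0.28 and -0.20 and Slc5a3 between -0.35 and -0.12, while Slc6a6 and Hspa4l have values on both sides of 0. Nfat5 was chosen for its difference between these groups, so its kept direction is no support for it.

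Mice with less Nfat5 were not shown to have less of its targets. Over the 8 mice the log2 CPM of Nfat5 had r = 0.357 with Slc5a3 (exact permutation p = 0.3769; Spearman rho = 0.452, p = 0.2675). With Slc6a6 it had r = 0.439 (exact permutation p = 0.2836; rho = 0.238, p = 0.5821). With Hspa4l it had r = -0.025 (exact permutation p = 0.9505; rho = 0.048, p = 0.9349). Adjusted over these 3 pairs the p-values of r were 0.565, 0.565 and 0.951. Without BPA mice 1 and 4, the farthest from the median of Nfat5, r was 0.581 with Slc5a3, 0.021 with Slc6a6 and -0.003 with Hspa4l. The pooled r carries the group difference for which Nfat5 was chosen. After each group's mean was subtracted, r was -0.306 with Slc5a3, 0.480 with Slc6a6 and -0.318 with Hspa4l (exact permutation within groups, p = 0.5781, 0.4271 and 0.5573, all 0.578 adjusted over the 3). Without BPA mice 3 and 4, the farthest from their group mean of Nfat5, these turned to 0.774, -0.905 and 0.409, so each sign rests on those mice.

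The targets were also set against each other, pairs that were added after the values were seen. Within the BPA group, mice 1 and 3 were low in both Slc5a3 and Hspa4l and high in Slc6a6, and BPA mouse 4 was high in Slc5a3 and Hspa4l and lowest in Slc6a6. After centring within groups, r was 0.879 between Slc5a3 and Hspa4l (exact permutation p = 0.02951; rho = 0.905, p = 0.01215). It was -0.951 between Slc5a3 and Slc6a6 (exact permutation p = 0.01215; rho = -0.833, p = 0.03819) and -0.828 between Slc6a6 and Hspa4l (exact permutation p = 0.05208; rho = -0.714, p = 0.1389). None passed 0.05 after adjustment over the 6 pairs, where the p-values of r were 0.0885, 0.0729 and 0.104. That depended on the setting: thinned to the smallest library the pair of Slc5a3 and Slc6a6 had an adjusted p of 0.0417 (exact permutation), and without control mouse 3 each of the 3 pairs had 0.0278. Before centring, r was 0.807 between Slc5a3 and Hspa4l, -0.639 between Slc5a3 and Slc6a6 and -0.759 between Slc6a6 and Hspa4l (exact permutation p = 0.01706, 0.08648 and 0.02547; 0.0764, 0.173 and 0.0764 adjusted over the 6). Without the 2 mice farthest from the median of the gene named first in each pair, these were 0.494, -0.416 and -0.511, with the same signs. Of 15433 other tested genes, 19 (0.123%), with Slc6a6 among them, had a centred r with Slc5a3 at least as negative as that of Slc6a6. At least as positive as that of Hspa4l were 189 (1.22%), with Hspa4l among them. For the planned pairs with Nfat5, counted likewise, the shares were 25.7% for Slc5a3, 12.5% for Slc6a6 and 24.8% for Hspa4l.

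**Figure D3:**
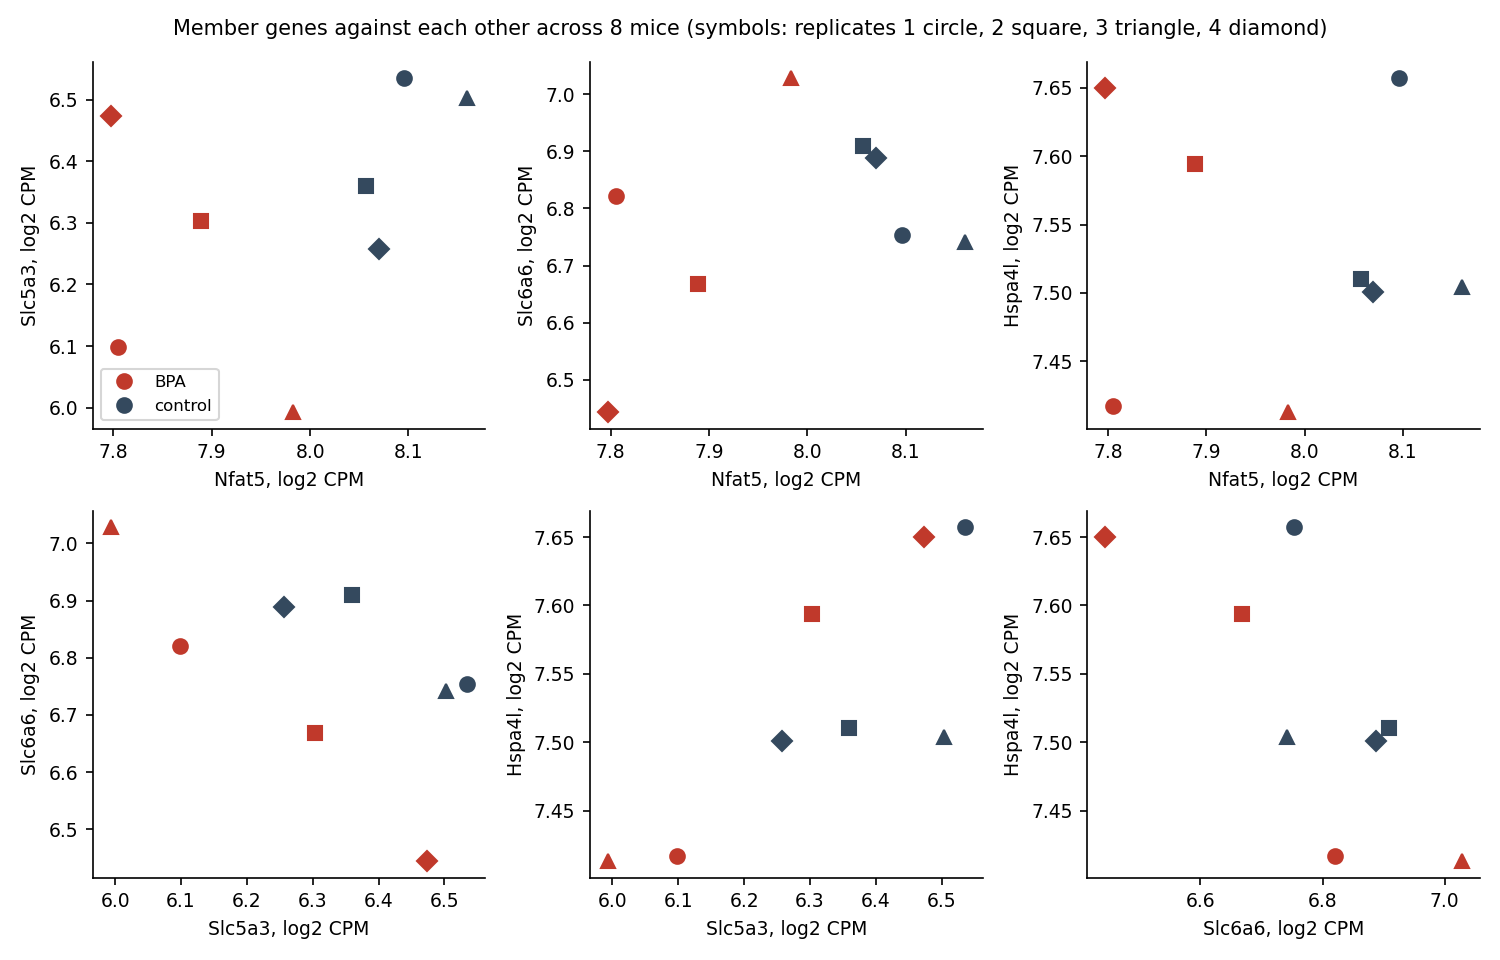
Each pair of counted genes across the 8 mice, in log2 CPM on both axes, with BPA mice in red and control mice in dark. The top row sets Nfat5 against its targets, where r runs between -0.025 and 0.439, and the bottom row sets the targets against each other, where r is -0.639, 0.807 and -0.759.

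The promoters of Slc5a3 and Hspa4l are shown as those of the 2 targets with a positive r above, a pair that did not pass adjustment over all 8 mice. Each is a 300-base window around the annotated start from RefSeq (GRCm38.p6), at chr16:92058072-92058371 and chr3:40745363-40745662, both on the plus strand, and 3 of the 5 genes, with Nfat5, had such a window. The Hspa4l window lies wholly downstream of the gene start given above, 40744495, and so describes another start. Capitals mark the GC box GGGCGG on either strand, where overlapping matches run together.
Slc5a3: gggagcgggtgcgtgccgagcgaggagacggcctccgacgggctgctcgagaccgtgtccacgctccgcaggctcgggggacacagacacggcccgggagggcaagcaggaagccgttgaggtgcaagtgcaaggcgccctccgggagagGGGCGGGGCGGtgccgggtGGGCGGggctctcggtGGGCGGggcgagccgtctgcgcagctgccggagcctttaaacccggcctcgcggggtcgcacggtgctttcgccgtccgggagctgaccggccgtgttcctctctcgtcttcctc
Hspa4l: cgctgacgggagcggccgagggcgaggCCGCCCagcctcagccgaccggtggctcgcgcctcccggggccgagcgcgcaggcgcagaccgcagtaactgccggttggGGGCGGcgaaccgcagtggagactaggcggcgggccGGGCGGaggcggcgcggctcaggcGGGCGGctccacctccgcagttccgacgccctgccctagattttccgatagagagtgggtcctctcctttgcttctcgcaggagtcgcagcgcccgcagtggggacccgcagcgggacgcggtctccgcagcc
The Slc5a3 window held 4 GC boxes, the Hspa4l window 4 and the Nfat5 window 2, and their GC content was 73.3%, 74.7% and 72.0%. Of 32851 promoters of this length, 35.7% held the GC box. None of the 3 windows held the TonE consensus, its core TGGAAA or the heat shock element GAANNTTC on either strand, against 4.96%, 21.4% and 7.86% of all promoters; the core is part of the TonE consensus. The osmotic enhancers known for such transporter genes can lie far outside windows of this size.

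Among the 95 genes examined here (the 5 and the 90 on the lists described next), promoters of 72 were searched. Of these 72 genes, 9 (12.5%) held a TonE consensus. Of all 32851 promoters 4.96% held it, a share of promoters and not of genes, so it is no direct background for the 12.5%. The difference was not tested. The sites are shown for 4 genes related to the 5 by family, since they are the letters that NFAT5 is known to read, with the match in capitals. They lie at chr6:121342490-121342518 (plus strand) for Slc6a12, chr6:121303553-121303581 (minus) for Slc6a13, chr2:168601843-168601871 (plus) for Nfatc2 and chr5:149636278-149636306 (minus) for Hsph1. In GENCODE, Slc6a13 starts at 121300227 on the plus strand and Hsph1 at 149636376 on the minus strand. The sites of Slc6a13 and Hsph1 thus lie inside the annotated genes, downstream of those starts.
Slc6a12: ggtacttggTGGAAAACTCCagtctgtga
Slc6a13: acaggggtgTGGAAATTCCCtaaatatgg
Nfatc2: tcagcgccaTGGAAACCCCTggatcccgt
Hsph1: tgcagattcTGGAAAGTTCTcctcagtag
A match describes the letters only, and the Hsph1 stretch also holds GAAAGTTC, a match to the heat shock element GAANNTTC. Slc6a12, the betaine transporter, was barely detected, at 0.392 ± 0.345 CPM in BPA mice and 0.478 ± 0.353 CPM in control mice (SD, n = 4 each). Hsph1, a heat shock protein of the same family as Hspa4l, stood at 500.4 ± 58.2 CPM in BPA mice and 505.0 ± 54.0 CPM in control mice. Slc6a13, a transporter of GABA and taurine found in meninges, stood at 4.755 ± 3.71 CPM in BPA mice and 3.582 ± 1.65 CPM in control mice, with BPA mouse 3 the highest at 10.23 CPM.

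The 6 lists of related genes gave 90 genes, of which 82 were tested and 0 passed edgeR's adjusted threshold. Of the 82, 46 were lower and 36 higher in BPA mice, so 56.1% were lower against 50.0% of all tested genes. Only Nfatc2 was lower with no overlap between groups, which is 1.22% of the 82 against 1.43% of all tested genes, and 0 were higher with no overlap against 1.37%.

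Of 16 other known NFAT5 targets, 12 were tested, 9 lower and 3 higher in BPA mice, with a median log2 fold change of -0.15 against 0.0 over all genes. Under the 18 other settings the median ran between -0.212 and -0.052, and between -0.204 and -0.052 with each mouse left out in turn. It was -0.052 without control mouse 1, -0.096 without BPA mouse 4 and -0.062 with a choroid plexus score as covariate. Without control mouse 2 it was -0.099, where 7 were lower and 5 higher. The lowest of the list, the water channel gene Aqp1 at -1.22, rested on control mouse 2, which stood at 5.462 CPM beside at most 0.6097 CPM in the other control mice. Slc38a2, a sodium-coupled carrier of neutral amino acids, stood at 82.62 ± 14.0 CPM in BPA mice and 93.87 ± 3.42 CPM in control mice (SD, n = 4 each; log2 fold change -0.19 ± 0.098, edgeR adjusted p = 0.955). BPA mouse 4, at 63.12 CPM, was the lowest, and without it the log2 fold change was -0.076. The inducible heat shock gene Hspa1b stood at 26.65 ± 1.80 CPM in BPA mice and 32.69 ± 8.10 CPM in control mice (log2 fold change -0.30 ± 0.135, edgeR adjusted p = 0.955), with control mouse 1 at 43.54 CPM, and without that mouse the log2 fold change was -0.12. Its near-identical copy Hspa1a had a log2 fold change of -0.24 ± 0.158, which was -0.020 without control mouse 1, and reads may be split between the copies. Both copies count among the 9 lower, and both are also on the list of Hsp110 relatives and partner chaperones. With depth as a covariate the log2 fold changes were -0.51 for Hspa1b and -0.53 for Hspa1a. Aqp2, Lcn2, Ccl2 and Tnf had 2, 37, 5 and 7 reads over the 8 libraries and were not tested.

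Of 20 genes that make, break down or carry osmolytes, 17 were tested, 9 lower and 8 higher, with a median of -0.016. Cdo1, which oxidises cysteine on the way to taurine, stood at 12.63 ± 0.725 CPM in BPA mice and 13.69 ± 0.983 CPM in control mice (log2 fold change -0.11 ± 0.069), but with depth as a covariate the log2 fold change was 0.017. Chdh, which makes betaine aldehyde from choline, stood at 5.499 ± 1.25 CPM in BPA mice and 6.708 ± 1.94 CPM in control mice (log2 fold change -0.29 ± 0.196). Control mouse 2, rich in choroid plexus RNA, was its highest at 9.592 CPM, and without that mouse the value was -0.062. The creatine transporter Slc6a8 had a log2 fold change of 0.017 ± 0.058, which turned to -0.036 without control mouse 2 and BPA mouse 3. The inositol carrier Slc5a11 had 48 reads in all and was not tested.

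Of 18 genes of cell volume sensing and ion transport, 17 were tested, 12 lower and 5 higher, with a median of -0.039. Without control mouse 2, 8 were lower and 9 higher, with a median of 0.007. Trpv4, a cation channel opened by cell swelling, stood at 0.626, 0.336, 1.337 and 0.530 CPM in BPA mice, against 0.642, 5.142, 0.549 and 0.648 CPM in control mice. A single library, control mouse 2, held most of its reads. Its log2 fold change was -1.36 ± 0.687 with that mouse and 0.18 without it. Lrrc8c, a subunit of volume-regulated anion channels, had a log2 fold change of -0.12 ± 0.069, and Aqp4, the water channel of astrocytes, stood at 207.3 ± 12.5 CPM in BPA mice and 220.3 ± 7.33 CPM in control mice (log2 fold change -0.088 ± 0.051).

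All 19 genes known to act on NFAT5 were tested, 8 lower and 11 higher, with a median of 0.018. Akap13, also called Brx, an exchange factor known to be needed for osmotic induction of Nfat5, stood at 61.09, 65.04, 57.83 and 61.51 CPM in BPA mice, against 71.88, 67.44, 64.66 and 67.03 CPM in control mice. The groups overlapped by BPA mouse 2 and control mouse 3, and the log2 fold change was -0.14 ± 0.049 (edgeR adjusted p = 0.955). Ccm2, a scaffold for osmotic p38 signalling, had a log2 fold change of 0.11 ± 0.054, the highest of the list.

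All 9 Rel and NFAT relatives were tested, 4 lower and 5 higher, with a median of 0.005 that was -0.15 with depth as a covariate. Nfatc2, a calcineurin-dependent relative, stood at 8.989, 8.363, 8.321 and 8.366 CPM in BPA mice, against 9.859, 9.752, 9.233 and 9.984 CPM in control mice. The groups did not overlap, and the log2 fold change of -0.19 ± 0.066 did not pass the test (edgeR adjusted p = 0.955). Nfatc3 had a log2 fold change of -0.13 ± 0.076, Nfatc1 of 0.023 ± 0.106 and Nfatc4 of 0.18 ± 0.270, and the signs of Nfatc1 and Nfatc4 turned with depth as a covariate. Of the 10 Hsp110 relatives and partner chaperones, 10 were tested, 6 lower and 4 higher, with a median of -0.011. The 6 include Hspa1a and Hspa1b, also counted among the other NFAT5 targets above. Without control mouse 2 the median was -0.061, with 8 lower and 2 higher. Hspa4, the closest relative of Hspa4l, stood at 427.2 ± 26.5 CPM in BPA mice and 413.6 ± 14.6 CPM in control mice (log2 fold change 0.047 ± 0.052).

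**Figure D4:**
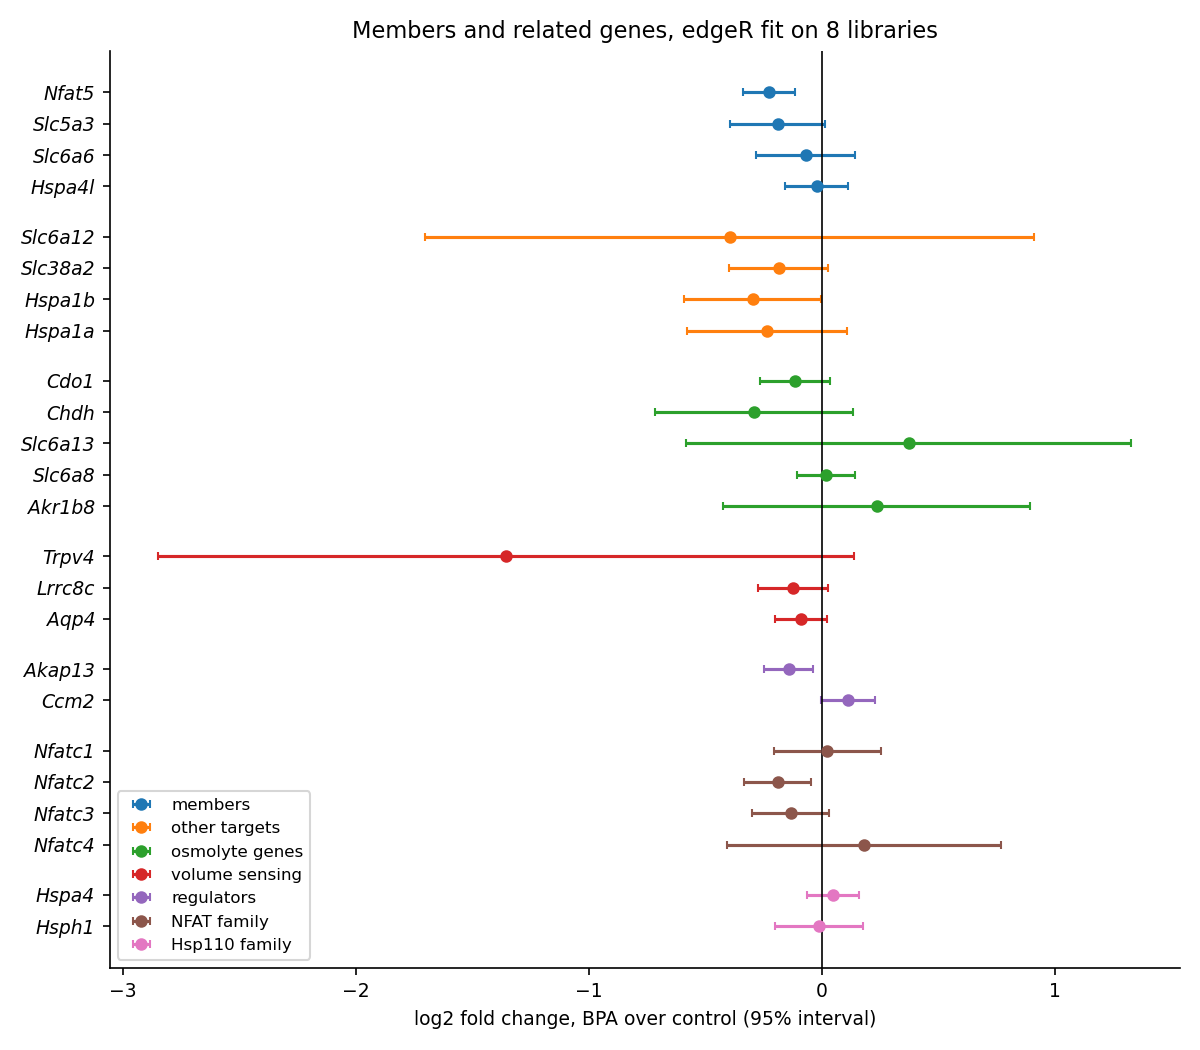
Log2 fold change, BPA over control, with its 95% interval from edgeR on 8 libraries, for the 4 counted genes and related genes named in the text, coloured by list. Nfat5 is at -0.23, and the widest intervals belong to genes with few reads or a single high library, such as Slc6a12 and Trpv4.

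The genes with levels most like Nfat5 over the 8 mice were Prkag1 (r = 0.958), Cd53 (0.936), Zfp212 (0.931), Pias1 (0.925) and Rps15a (0.919). Nfat5 differed between the groups by choice, so these genes were lower in BPA mice as well, with log2 fold changes of -0.22 for Cd53 and between -0.082 and -0.045 for the others, none past the threshold. After centring within groups the most alike were Tnik (r = 0.987), Ctdp1 (0.977), Atxn1l (0.969), Mphosph9 (0.967) and Ncoa3 (0.956), over the same 8 mice. Tnik, the most alike, stood at 198.8, 221.7, 240.0 and 200.7 CPM in BPA mice, against 207.2, 201.2, 218.0 and 198.6 CPM in control mice. As for Nfat5, BPA mice 3 and 2 and control mice 3 and 1 were the highest of their groups, but the mean of Tnik was 215.3 CPM in BPA mice and 206.2 CPM in control mice.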

How the data were processed

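Hippocampal poly(A) RNA of 4 BPA and 4 control mice was sequenced from stranded ScriptSeq v2 libraries, per the labels. The authors deposited raw read counts per gene symbol, whole numbers that are not normalized. Trimmomatic 0.32, STAR 2.3.0e, featureCounts 1.5.0, DESeq2 and mm10 were used per the submitters' processing notes, and genes follow refGene per the file headers. No source used here states the strand setting or the handling of reads with several positions, so genes with an opposite-strand neighbour (Slc6a6, Chdh, Nfatc3, Hspa1a, Prkag1, Ctdp1 and Ncoa3 among those named) are uncertain. 3750 rows were at 0 in every library.

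From the counts, levels in CPM were computed with TMM scaling. The test was edgeR 4.0.16 (R 4.3.3) quasi-likelihood, two-sided, after filterByExpr, with Benjamini-Hochberg adjustment over 15434 genes at 0.05. The SE came from the F statistic. The median SE was 0.075 on the log2 scale. No 2 mice of a group agreed within sampling noise (12 pairs, chi-square). Correlations used log2 CPM with a prior count of 2. On simulated data the fit recovered 54% of genes changed by a fold of 1.3 and 98% at a fold of 3.0. Those data held 200 changed genes at folds of 1.3 to 3.0, and 8 other genes were called falsely. With 0 genes called in the real data, the adjustment was stricter there. These shares therefore do not carry over to the 5 genes. Changes smaller than a fold of 1.3 were not simulated. DESeq2 1.42.0, limma 3.58.1, other scalings, covariates, thinning to the smallest library, a replicate block and leaving out mice were alternatives.

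The genes and lists were chosen with earlier results of these data known. Named genes are the 5, the 2 with the smallest unadjusted p in each list, their paralogs, Aqp4, Mrps6 as a gene over a locus, and the 5 genes most like Nfat5 by each correlation. Positions and exon lengths come from GENCODE vM21 on GRCm38, and promoters from RefSeq.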

Additional observations from a re-analysis of the deposited data

Results flagged for a closer look

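A sample far from the others of its group was found in 7 of 70 groups checked, by the gap to its nearest neighbour as a share of the group's range (Dixon's 95% critical value for 4 samples). Chance gives about 1 in 20. For Hspa4l, control mouse 1 stood at 202 CPM beside 181 to 182 in the other control mice. For Mrps6, the gene that overlaps Slc5a3, the same mouse was low, at 12.4 CPM beside 14.1 to 14.4. For Trpv4 and Chdh, control mouse 2 stood at 5.14 CPM beside 0.549 to 0.648, and at 9.59 CPM beside 5.46 to 6.10. For Cdo1, BPA mouse 3 stood at 13.7 CPM beside 12.2 to 12.4 in the other BPA mice, and control mouse 4 at 15.2 CPM beside 13.2 in the other control mice. For Nfatc2, BPA mouse 1 stood at 8.99 CPM beside 8.32 to 8.37, the nearest of its group to the control mice.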

How the results depend on the processing

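Nfat5 and Slc5a3 kept their direction under all 18 alternatives. Nfat5 was chosen for its difference in these same libraries and its groups did not overlap, so its kept direction is no support for that difference. With log2 library total as a covariate the log2 fold change turned to 0.025 for Slc6a6, 0.017 for Cdo1, -0.175 for Nfatc1, -0.154 for Nfatc4, 0.023 for Mrps6 and 0.031 for Mphosph9. Other genes moved under that covariate without a change of sign. Among them, Akap13 was at -0.25, Lrrc8c at -0.224, Slc6a13 at 0.039 and Akr1b8 at 0.536. Thinned to the smallest library it was -0.030 for Nfatc1 and 0.010 for Mphosph9, and r of Nfat5 and Hspa4l was 0.028. Without control mouse 2 and BPA mouse 3, log2 fold changes were -0.256 for Slc6a13, -0.036 for Slc6a8, -0.016 for Nfatc4, 0.038 for Mrps6, -0.008 for Tnik, -0.068 for Mphosph9 and -0.011 for Ctdp1. Without those 2 mice, r of Nfat5 was 0.014 with Hspa4l, and centred within groups 0.264 with Slc5a3, -0.085 with Slc6a6 and 0.043 with Hspa4l. Without the 2 mice farthest from 0 the centred values were 0.774, -0.905 and 0.409. DESeq2 called 7 genes against 0. The cause was not tested.

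Leaving out each mouse in turn, log2 fold changes ran between -0.172 and 0.021 for Slc6a6, -0.067 and 0.017 for Hspa4l, -1.862 and 0.184 for Trpv4, -0.322 and 0.676 for Slc6a13, -0.012 and 0.070 for Slc6a8, -0.084 and 0.053 for Hsph1, -0.054 and 0.092 for Nfatc1, -0.053 and 0.347 for Nfatc4, -0.056 and 0.025 for Mrps6, -0.001 and 0.066 for Ctdp1, 0.005 and 0.098 for Tnik, and -0.045 and 0.029 for Mphosph9. For r of Nfat5 the ranges were -0.374 to 0.347 with Hspa4l and, centred, -0.519 to 0.311 with Slc5a3, -0.209 to 0.648 with Slc6a6 and -0.658 to 0.112 with Hspa4l. Between the targets, centred r kept its sign without each mouse in turn, at 0.799 to 0.965 for Slc5a3 and Hspa4l, -0.984 to -0.908 for Slc5a3 and Slc6a6 and -0.900 to -0.705 for Slc6a6 and Hspa4l; the p adjusted over 6 pairs was under 0.05 only without control mouse 3 (0.0278 for each) and, thinned, for Slc5a3 and Slc6a6 (0.0417). Before centring it was under 0.05 only for Slc5a3 and Hspa4l without control mouse 3 (0.0226).

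The labels do not say whether the replicate numbers pair the mice. After centring within groups, same-numbered mice had correlations of -0.123, -0.372, -0.295 and 0.07. Mice of different numbers had correlations of -0.168 to 0.322, and so few values cannot decide the question. With the replicate number as a block the log2 fold change was -0.227 for Nfat5, -0.198 for Slc5a3, -0.082 for Slc6a6 and -0.025 for Hspa4l, and 0 genes were called. The SE was 0.075 for the median gene, and genes with few reads carried far more, as Slc6a12 with 0.602.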
